A study of Mus musculus with 15 samples.

Results

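The nuclear genes of mitochondrial oxidative phosphorylation were followed through 5 groups of mouse mammary tumour spheres. Members were chosen by symbol alone: those beginning with Nduf, Uqcr, Atp5, Cox4i, Cox5, Cox6, Cox7 or Cox8, together with Sdha, Sdhb, Sdhc, Sdhd, Cycs and Cyc1. The rule found 92 genes among the 18193 represented on the array, and 86 of them were among the 11412 genes bright enough to test. The cells came from mammary tumours of FVB/N mice of the genotype MMTV-PyMT, in which the promoter of mouse mammary tumour virus drives the polyoma middle T oncogene in mammary epithelium, so all groups, vehicle included, carried that oncogene. They were grown as mammospheres, floating spheres kept without serum in EGF, FGF and B27, for 10 days, and were then given vehicle, DAPT, U0126, TAE226 or PP2 for 2 days. The study names Notch as the target of DAPT, MEK1 of U0126, FAK (focal adhesion kinase) of TAE226 and Src of PP2. Each group had 3 samples, called biological replicates in the labels without a statement on whether they came from separate mice, so the p-values below reflect sample-to-sample spread, which may be technical. The sources used here do not give inhibitor doses or the age and number of donor mice.

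Oxidative phosphorylation moves electrons from NADH and succinate through complexes in the inner mitochondrial membrane to oxygen, and uses the proton gradient built on the way to make ATP. Complex I takes electrons from NADH, complex II (succinate dehydrogenase) takes them from succinate in the TCA cycle, complex III passes them to cytochrome c, complex IV (cytochrome c oxidase) hands them to oxygen, and complex V is the ATP synthase. Most subunits are encoded in the nucleus, and the few encoded by mitochondrial DNA do not fall under the symbol rule. By complex, the tested members were 33 subunits of complex I, 8 of its assembly factors, 4 of complex II, 9 of complex III, cytochrome c itself, 14 of complex IV and 17 of complex V. The other 6 members lay below the array median on all 15 arrays: the complex I subunit Ndufb4, and Cox4i2, Cox6b2, Cox7b2, Cox8b and Ndufa4l2, which are tissue-specific or inducible relatives of complex IV subunits. They were not tested and enter no count below.

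Promoter sequence was examined because many of these genes moved together under one inhibitor. NRF1, ETS-family factors such as GABP, and YY1 are known regulators of respiratory genes. RefSeq promoter windows (GRCm38.p6, 300 bases from 250 before to 50 after the start) were matched for 75 of the 92 members and searched on both strands for 3 short motifs, GCGC and TGCGC separated by any 1 base for NRF1, CCGGAAG for ETS factors and AAGATGGC for YY1. No match of one motif overlapped a match of another in these members. The NRF1 motif was present in 17 members (22.7%), against 5.19% of all 27025 genes with a promoter window and 11.8% of the tested genes that had one. The ETS motif was present in 19 members (25.3%), against 9.93% of all genes and 20.7% of tested genes. The YY1 motif was present in 10 members (13.3%), against 3.19% and 5.45%. None of the 3 was found in 35 members. The windows of 7 genes that recur below are printed 5′ to 3′ on the gene's strand, 120 bases each, with motif matches in capitals and everything else in lower case. They run from 90 bases before the start to base 30, except that of Ndufs5, which runs from base −108 to base 12 so that its motif is whole. Capitals mark an NRF1 match in Ndufs5, an ETS match in Atp5md and Sdhb and a YY1 match in Ndufa3, while Ndufab1, Cox7a1 and Cox7a2l held none.
Ndufs5 (chr4:123718175-123718294, minus strand): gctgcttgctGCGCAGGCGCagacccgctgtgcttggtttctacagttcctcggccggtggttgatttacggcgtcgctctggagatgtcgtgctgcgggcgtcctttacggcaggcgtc
Atp5md (chr19:47090618-47090737, minus strand): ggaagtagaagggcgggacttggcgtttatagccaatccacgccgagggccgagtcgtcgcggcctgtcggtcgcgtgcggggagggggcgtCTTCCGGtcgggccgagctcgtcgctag
Sdhb (chr4:140961181-140961300, plus strand): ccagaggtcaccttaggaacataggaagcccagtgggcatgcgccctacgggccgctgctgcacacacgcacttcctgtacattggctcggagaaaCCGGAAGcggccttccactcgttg
Ndufa3 (chr7:3617283-3617402, plus strand): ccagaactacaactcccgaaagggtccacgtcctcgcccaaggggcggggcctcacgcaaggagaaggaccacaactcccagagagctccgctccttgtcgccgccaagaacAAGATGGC
Ndufab1 (chr7:122101819-122101938, minus strand): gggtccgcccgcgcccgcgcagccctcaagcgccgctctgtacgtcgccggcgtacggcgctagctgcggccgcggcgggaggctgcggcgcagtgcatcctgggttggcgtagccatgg
Cox7a1 (chr7:30184081-30184200, plus strand): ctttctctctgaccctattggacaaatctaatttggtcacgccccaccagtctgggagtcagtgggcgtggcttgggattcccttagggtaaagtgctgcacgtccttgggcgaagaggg
Cox7a2l (chr17:83514304-83514423, minus strand): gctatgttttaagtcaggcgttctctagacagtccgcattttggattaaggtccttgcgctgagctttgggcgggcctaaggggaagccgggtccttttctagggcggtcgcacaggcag

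Values are log2 of the deposited MAS5 signal, a brightness per probe set, and each gene was read from its brightest probe set, so levels are compared between samples of 1 gene and not between genes. The median signal of an array ran from 65.7 to 90.8 although all arrays had been scaled to 1 trimmed mean of 500. Scaling to the array median instead moved the median change of all tested genes to −0.08 under U0126, −0.12 under DAPT, −0.20 under PP2 and −0.24 under TAE226, from values between 0.00 and 0.02. The direction of a small change therefore has to be read against that choice. As a sign of RNA length, the actin control probe sets gave a 3′ to 5′ ratio of 1.42 ± 0.06 in vehicle, 1.35 ± 0.07 in DAPT, 1.28 ± 0.07 in U0126, 1.33 ± 0.07 in TAE226 and 1.57 ± 0.04 in PP2 (SD, n = 3 each). For Gapdh the mean ratio was 0.78 in vehicle, 0.80 in DAPT, 0.79 in U0126, 0.79 in TAE226 and 0.83 in PP2. Of 9 luminal epithelial markers represented, only Foxa1 lay below the median on all arrays, and of 8 basal and myoepithelial markers only Myh11 and Cnn1 did. Below the median everywhere were 5 of 7 fibroblast, 5 of 6 endothelial, 4 of 5 adipocyte and 6 of 9 muscle markers, and, of 6 macrophage and leukocyte markers, Ptprc and Itgam.

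Under U0126 the respiratory genes rose as a group. Of the 86 members, 44 (51.2%) were called higher and 0 lower, at an adjusted p under 0.05 by limma, where 19.5% of all tested genes were higher and 21.4% lower, 40.9% together. A positive change, called or not, was measured for 75 of the 86. The median change was 0.15 on the log2 scale, or 11.1%, and stood 0.15 above the median of all tested genes. The member median of the single arrays, taken against the vehicle mean, was 0.11 to 0.20 in the 3 U0126 arrays and −0.02 to 0.03 in the 3 vehicle arrays, so the groups did not overlap. Called rises were small, from 0.15 to 0.65 (10.6% to 57.1%). Fewer cells of a type and less RNA per cell cannot be told apart in such bulk samples.

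With arrays centred on their median, all 44 of these genes kept a positive sign but 9 stayed past the threshold, and the cause of the lost calls was not tested. The distance between the member median and that of all genes was 0.15 under either scaling. The rise of 29 of the 44 was still called when any single array was left out. Another probe set above the median on all 15 arrays existed for 22 of the called genes, 34 probe sets in all, and 29 of these had a positive difference. The 5 with a negative difference belonged to Ndufa7 (−0.05), Ndufab1 (−0.35), Ndufb8 (−0.12), Ndufs4 (−0.34) and Cox6c (−0.26). The actin ratio was lowest under U0126, while the Gapdh ratio was 0.79 there and 0.78 in vehicle. The summed level of the basal markers was 14.18 to 14.33 under U0126, 13.68 to 13.82 in vehicle and 14.16 to 14.17 under DAPT (log2). Of the 6 basal markers tested, 3 were called higher and 2 lower under U0126. The part of the actin ratio or the basal markers in the rise was not tested.

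**Figure D1:**
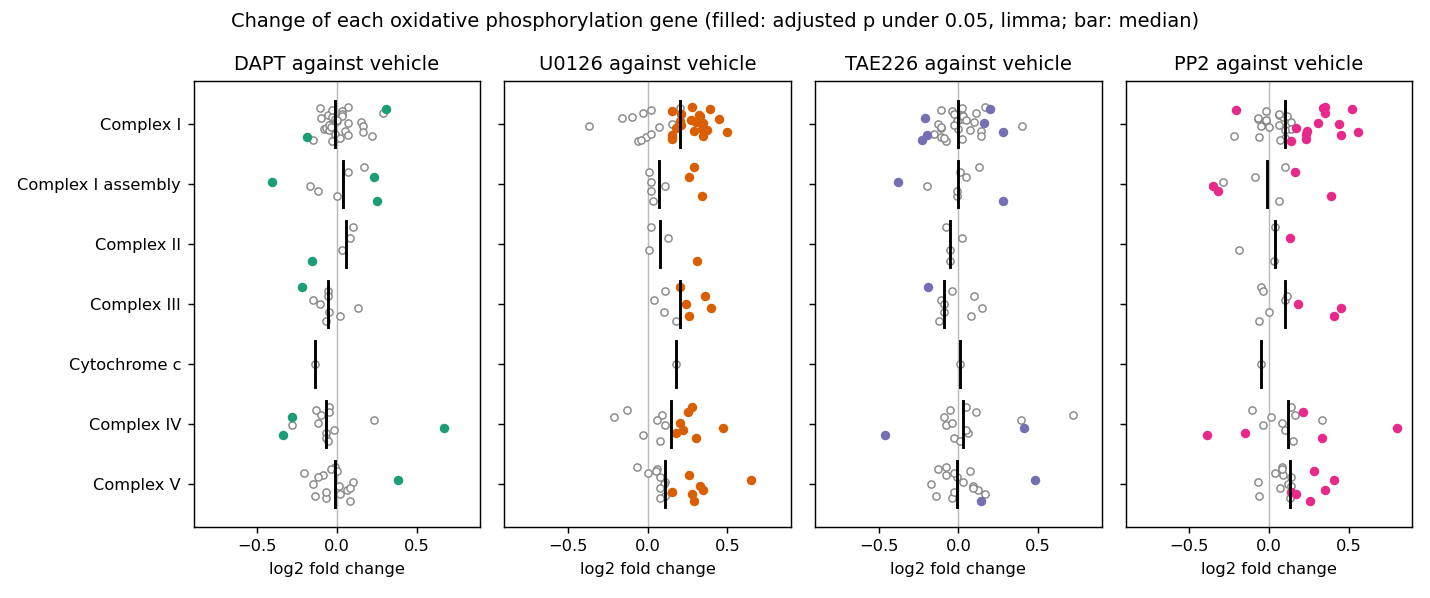
Log2 fold change against vehicle (horizontal axis) of each of the 86 tested genes, by complex (vertical axis), in 1 panel per inhibitor; each point is a gene, filled where limma's adjusted p was under 0.05, and the black bar is the median of the complex. Under U0126 all 44 filled points lie right of 0, and under PP2 28 lie right and 5 left of it.

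Rises under U0126 were called in each of complexes I to V, with 21 of 33 subunits in complex I. Complex I is built from core subunits, which carry the redox centres and the proton path, and from accessory subunits, which surround and stabilise them. Of 27 accessory subunits 20 rose, with a median change of 0.21. Of the 6 nuclear core subunits 1 rose, the flavoprotein Ndufv1 (0.27, adjusted p = 0.0107, and 0.0657 without U0126 replicate 1), with a median of −0.01. The difference between these classes was not tested. With median centring the Ndufv1 change was 0.18 and was not called. Ndufs5, an accessory subunit on the intermembrane side, measured 10.91, 10.93 and 10.75 in vehicle and 11.51, 11.19 and 11.39 under U0126, a change of 0.50 (SE 0.08, adjusted p = 0.000117). All U0126 arrays lay above all vehicle arrays.

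Ndufab1, the mitochondrial acyl carrier protein that sits in complex I and also serves fatty acid and lipoic acid synthesis, stood apart under U0126. It measured 12.36, 12.40 and 12.40 in vehicle and 12.84, 12.90 and 12.79 under U0126, a rise of 0.45 or 36.9% (SE 0.05, adjusted p = 4.51e-06). The other inhibitors left it between 12.26 and 12.46, overlapping the vehicle range. It was higher under U0126 than under TAE226 by 0.44 (adjusted p = 1.03e-05) and than under PP2 by 0.52 (adjusted p = 4.65e-07). Its 4 other probe sets did not give 1 answer for U0126, with changes of 0.35, 0.35, −0.35 and −0.38. Ndufa1, a small membrane subunit needed for assembly, rose by 0.28 (adjusted p = 0.00233). With median centring its change was 0.20 and was not called.

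Of the 4 complex II genes, only the iron-sulphur subunit Sdhb was called under U0126. It measured 12.27, 12.30 and 12.28 in vehicle and 12.48, 12.69 and 12.63 under U0126, a rise of 0.31 (SE 0.05, adjusted p = 0.000163) with no overlap. Changes of the flavoprotein subunit Sdha (0.02), and of the membrane anchors Sdhc (0.01) and Sdhd (0.13, adjusted p = 0.051), did not pass, and those of Sdha and Sdhc turned negative with median centring. In complex III 5 of 9 subunits rose, with a median of 0.20. Cyc1, the cytochrome c1 subunit that hands electrons to cytochrome c, measured 12.24, 12.21 and 12.31 in vehicle and 12.45 on each U0126 array (0.20, SE 0.05, adjusted p = 0.0065). The small subunits Uqcr11 (0.40, adjusted p = 5.18e-05), Uqcrq (0.36, adjusted p = 0.00037) and Uqcr10 (0.26, adjusted p = 0.00498) rose too. Cycs, the mobile carrier cytochrome c, measured 13.92, 13.93 and 13.62 in vehicle and 13.95, 13.98 and 14.07 under U0126, and its change of 0.18 was not called (adjusted p = 0.0667).

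In complex IV 7 of 14 members rose under U0126 and in complex V 7 of 17. Cox4i1, the common form of the regulatory subunit 4, rose by 0.28 (SE 0.06, adjusted p = 0.00137), and Cox8a, the common form of subunit 8, by 0.30 (SE 0.08, adjusted p = 0.00695). In the ATP synthase the F1 part, the catalytic head with the central stalk, had 2 of 5 members higher, Atp5d and Atp5e. The head subunits Atp5a1 and Atp5b were not called. The membrane part with its peripheral stalk had 5 of 12 higher. Atp5md, a small membrane subunit that helps ATP synthase dimers form, measured 12.11, 12.54 and 12.34 in vehicle and 12.96, 13.07 and 12.91 under U0126 (0.65, SE 0.12, adjusted p = 0.000411). This was the largest change among the 44 called rises. The F1 subunit Atp5e rose by 0.35 (adjusted p = 7.79e-05) and the membrane subunit Atp5l by 0.29 (adjusted p = 0.000251).

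**Figure D2:**
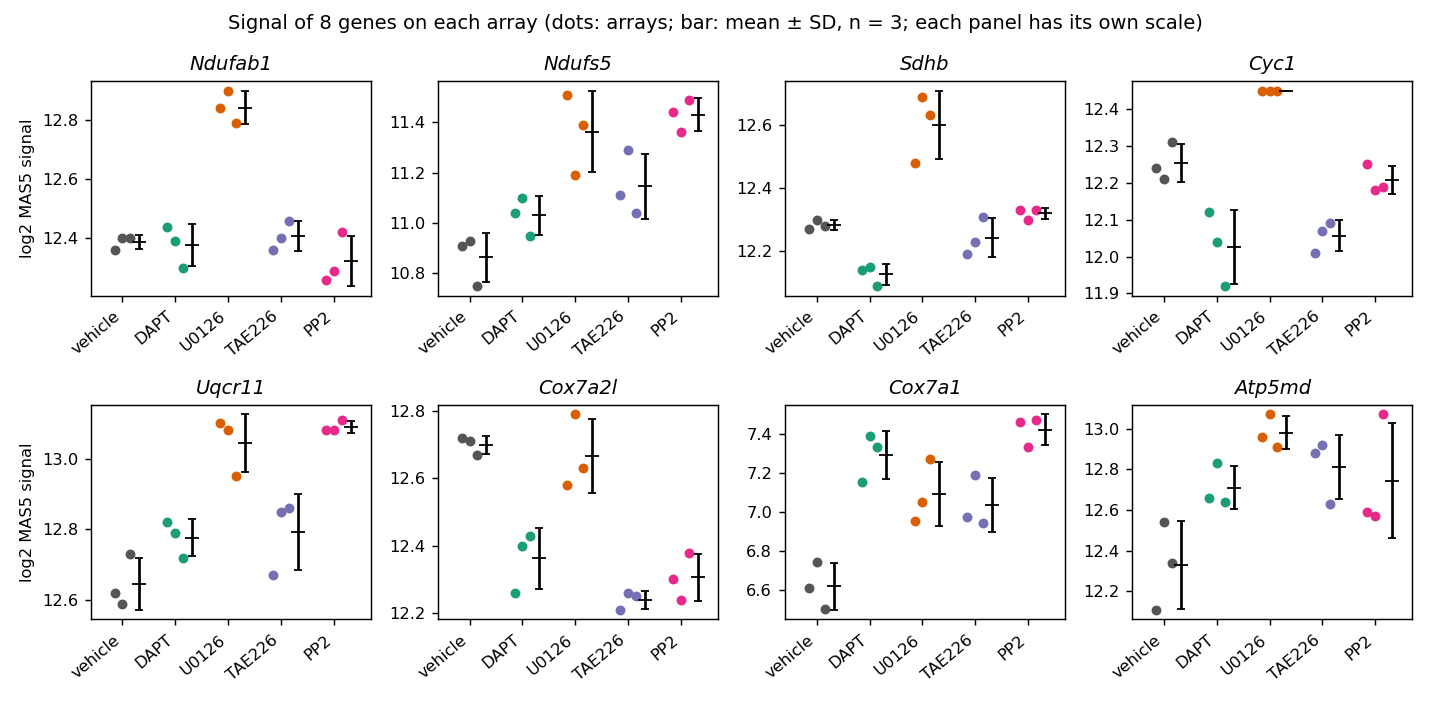
Log2 MAS5 signal (vertical axis, own scale per panel) of 8 genes on each of the 15 arrays by treatment (horizontal axis); dots are arrays, and the bar with whiskers is the mean ± SD of 3. Ndufab1 is high on the 3 U0126 arrays alone, and Cox7a2l is low on the DAPT, TAE226 and PP2 arrays but within the vehicle range or close to it on the U0126 arrays.

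The promoter motifs were also counted by the U0126 call. Of 38 higher members with a window 3 held the NRF1 motif (7.89%), among them Ndufs5, whereas 13 of the 33 tested members that were not called higher did (39.4%). Over all tested genes the shares were 10.8% of those higher under U0126 and 12.1% of the others, and 11.8% of all. The ETS motif was in 12 of the 38 (31.6%) and in 7 of the 33 (21.2%), while over all tested genes the order was the other way, with 15.5% of those higher under U0126 and 21.9% of the others. These shares were not tested, and a match of letters is no evidence that a factor binds there.

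PP2 raised a smaller set. Of the 86 members 28 were called higher and 5 lower, against 26.1% and 26.7% of all tested genes (52.8% together), so the rise had little excess over the background and the falls were few. The median change was 0.10, and 0.08 above that of all genes. With arrays centred on their median the count became 4 higher and 18 lower, and 20 of the 28 rises kept their sign, so the direction of the set under PP2 depends on the scaling. The member median relative to all genes stayed 0.08 above. For 17 of the genes called under PP2 there were 29 other probe sets above the median on all arrays, and 26 differed in the same direction, with the exceptions of Sdhd (−0.30), Cox5a (0.10) and Cox6c (−0.48). PP2 arrays had the highest actin ratio and the lowest summed basal markers, at 13.15 to 13.26. Of the 6 basal markers tested, 1 was called higher and 4 lower under PP2. The summed luminal markers were 16.12 to 16.17 under PP2 and 15.93 to 15.97 in vehicle (log2). Of the 8 luminal markers tested, 3 were called higher and 1 lower. The part of the actin ratio or of the basal or luminal markers in these changes was not tested.

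Several of the PP2 rises were as large as those under U0126. Ndufs5 measured 11.44, 11.36 and 11.49 under PP2, all above its vehicle arrays given above (0.56, SE 0.08, adjusted p = 2.05e-05). Ndufa3, an accessory subunit of the membrane arm, measured 12.51, 12.51 and 12.60 in vehicle and 13.07, 13.07 and 13.05 under PP2 (0.52, SE 0.06, adjusted p = 5.46e-07). The accessory subunits Ndufv3 (0.45, adjusted p = 1.35e-06) and Ndufa6 (0.44, adjusted p = 1.01e-05) also rose, and Ndufv3 fell under TAE226, by 0.20 (adjusted p = 0.00596). In all, 12 of 27 accessory subunits were higher and 0 lower, while of the 6 core subunits 1 was higher and 1, the large iron-sulphur subunit Ndufs1, was lower (−0.21, adjusted p = 0.0123). Each of these named changes kept its sign with median centring, Ndufs5 at 0.34, Ndufa3 at 0.30, and Ndufv3 and Ndufa6 at 0.23.

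In the later complexes PP2 raised Uqcr11 (0.45, adjusted p = 9.37e-06) and Uqcr10 (0.41, adjusted p = 6.75e-05), 3 of 9 complex III members in all. The counts by complex under PP2 stand beside 26.1% higher and 26.7% lower among all tested genes. Among complex IV members 3 were higher and 2 lower, with Cox8a at 0.33 (adjusted p = 0.00279). Of the complex V members 6 of 17 were higher, Atp5e at 0.35 (adjusted p = 5.86e-05) among them, and Atp5l at 0.26 (adjusted p = 0.000352). In complex II only Sdhd was called (0.13, adjusted p = 0.0411), and its other probe set differed by −0.30. That call turned to −0.09 with median centring and was lost, at adjusted p-values of 0.0514 to 0.127, when DAPT replicate 2, vehicle replicate 1 or 2, or any PP2 array was left out. Of the 8 complex I assembly factors 2 were higher and 2 lower, 25% each way and near the shares of all tested genes. Ndufaf3 rose by 0.39 (adjusted p = 0.000168), while Ndufaf4 (−0.32, adjusted p = 0.00078) and Ndufaf5 (−0.35, adjusted p = 0.00826), an enzyme that modifies a core subunit, fell. The ETS motif was in 11 of 25 members higher under PP2 (44.0%) and in 8 of 46 that were not (17.4%). Over all tested genes it was in 16.6% of those higher under PP2 and in 22.1% of the others, again as a description without a test.

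**Figure D3:**
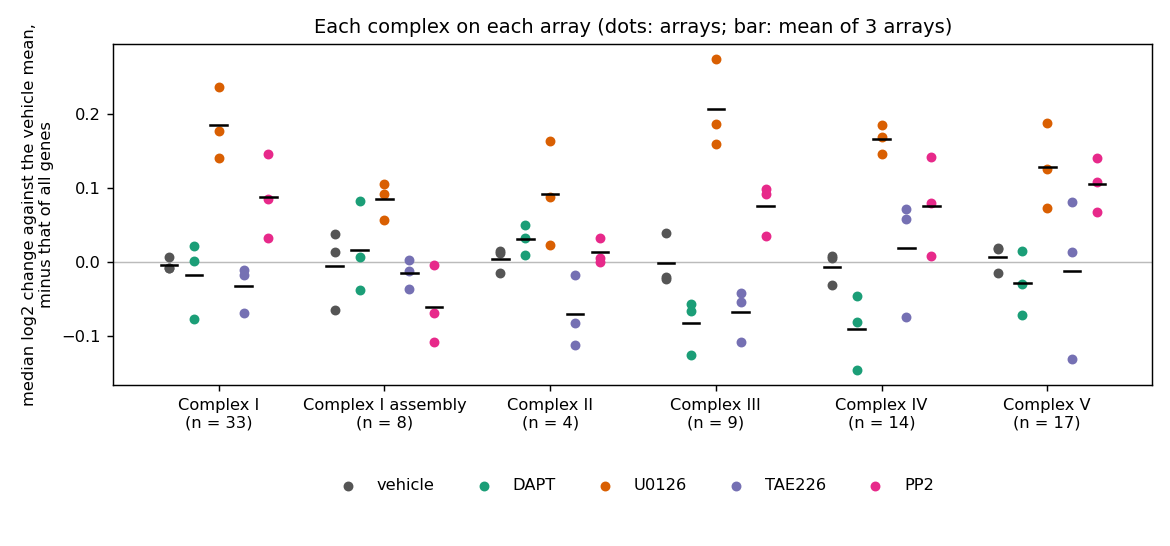
For each complex (horizontal axis, number of genes below the name) and each array, the median log2 change of its genes against the vehicle mean, minus that of all tested genes (vertical axis); dots are arrays and bars the mean of 3. Cytochrome c, a single gene, is left out. The 3 U0126 arrays lie above 0 in every complex shown, and for complex I at 0.14 to 0.24.

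DAPT left most of these genes without a called change. Of the 86 members 5 were higher and 6 lower, fewer than the 17.1% and 17.5% of all tested genes (34.6% together), with a median of −0.03. With median centring the count was 1 higher and 10 lower, and with quantile normalization 14 higher and 5 lower, so no direction of the set held across scalings. Cyc1 measured 12.12, 12.04 and 11.92 under DAPT, all below vehicle (−0.22, SE 0.05, adjusted p = 0.00343), the one complex III member called. Ndufa2, an accessory subunit with a thioredoxin-like fold, fell by 0.19 (adjusted p = 0.00686). Sdhb measured 12.14, 12.15 and 12.09, also below all vehicle arrays (−0.16, adjusted p = 0.0313), but leaving out any of the 6 vehicle and DAPT arrays ended that call (adjusted p = 0.0545 to 0.102).

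Other DAPT calls turned on single arrays. Cox7c, a complex IV subunit, changed by −0.28 (adjusted p = 0.0325), and the call was lost without vehicle replicate 1 (0.149), DAPT replicate 1 (0.0917) or DAPT replicate 3 (0.128). Of the assembly factors, Ndufaf6 changed by −0.41 (adjusted p = 0.0142), lost without vehicle replicate 2 (0.0517), DAPT replicate 1 (0.0518) or DAPT replicate 3 (0.0505). Ndufaf2, a chaperone of late complex I assembly, changed by 0.25 (adjusted p = 0.032), lost without vehicle replicate 3 (0.166), DAPT replicate 1 (0.109) or DAPT replicate 3 (0.063).

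TAE226 gave a similar split, with 7 members higher and 6 lower against 15.2% and 15.9% of all tested genes (31.1% together), and a median of −0.00. Median centring changed this to 0 higher and 39 lower, and quantile normalization to 12 higher and 7 lower. Cyc1 measured 12.01, 12.07 and 12.09, below all vehicle arrays (−0.19, SE 0.05, adjusted p = 0.01). Both core complex I subunits called fell, Ndufs7 by 0.23 (adjusted p = 0.0195) and Ndufs3 by 0.21 (adjusted p = 0.018), and these iron-sulphur and structural subunits belong to the arm that protrudes into the matrix. The Ndufs7 call was lost without vehicle replicate 3 (0.0795) or TAE226 replicate 1 (0.0878), and the Ndufs3 call without vehicle replicate 1 (0.0532) or 3 (0.063) or TAE226 replicate 1 (0.0743).

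Further TAE226 calls depended on single arrays in the same way. Ndufs5 measured 11.11, 11.29 and 11.04 (0.28, adjusted p = 0.0154), lost without vehicle replicate 3 (0.0711) or TAE226 replicate 2 (0.087). Ndufaf2 changed by 0.28 (adjusted p = 0.0194), lost without vehicle replicate 3 (0.103) or TAE226 replicate 1 (0.0943), and Ndufaf6 by −0.38 (adjusted p = 0.0236), lost without vehicle replicate 2 (0.0793) or TAE226 replicate 2 (0.108) or 3 (0.0739). Atp5l changed by 0.14 (adjusted p = 0.0461), turned to −0.11 with median centring, and lost its call, at adjusted p-values of 0.0537 to 0.151, on omission of vehicle replicate 1 or 2, TAE226 replicate 2 or 3, or any DAPT or PP2 array.

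Cox7a2l fell under DAPT, TAE226 and PP2, and its change under U0126 did not pass. Its product, also called SCAFI, joins complex III to complex IV in respiratory supercomplexes. It measured 12.72, 12.71 and 12.67 in vehicle, 12.26, 12.40 and 12.43 under DAPT, 12.58, 12.79 and 12.63 under U0126, 12.21, 12.26 and 12.25 under TAE226, and 12.30, 12.24 and 12.38 under PP2. All arrays of DAPT, TAE226 and PP2 lay below all vehicle and U0126 arrays. The change was −0.34 under DAPT (SE 0.06, adjusted p = 0.000349), −0.46 under TAE226 (SE 0.06, adjusted p = 1.87e-05) and −0.39 under PP2 (SE 0.06, adjusted p = 3.53e-05), comparisons that share the vehicle arrays, and −0.03 under U0126 (adjusted p = 0.709). Between inhibitors it was higher under U0126 than under TAE226 by 0.43 (adjusted p = 3.37e-05) and than under PP2 by 0.36 (adjusted p = 7.82e-05). No single array ended any of these calls, each kept its sign under every scaling tried, and its 2 other probe sets gave −0.36 and −0.42 under DAPT, −0.36 and −0.40 under TAE226, and −0.31 and −0.40 under PP2, with 0.08 and 0.04 under U0126.

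Cox7a1, the form of subunit 7a known from heart and skeletal muscle, went the other way. It measured 6.61, 6.74 and 6.50 in vehicle, 7.15, 7.39 and 7.33 under DAPT, 6.95, 7.05 and 7.27 under U0126, 6.97, 7.19 and 6.94 under TAE226, and 7.46, 7.33 and 7.47 under PP2. Every treated array was above every vehicle array. The signal was dim, with a mean of 7.09 over all arrays, though above the array median on all 15. The change was 0.67 under DAPT (SE 0.15, adjusted p = 0.0025) and 0.80 under PP2 (SE 0.15, adjusted p = 0.00028), the largest called change of any member in a comparison with vehicle. The change of 0.47 under U0126 (adjusted p = 0.0192) lost its call without vehicle replicate 3 (0.0643) or U0126 replicate 3 (0.0894). That of 0.41 under TAE226 (adjusted p = 0.0475) was called only when the omitted array was U0126 replicate 1 or 3, with adjusted p-values of 0.0504 to 0.164 for the other 13. The summed level of the 9 skeletal and cardiac muscle markers was 7.52 to 8.48 in vehicle, 8.34 to 8.58 under DAPT, 8.13 to 8.21 under U0126, 8.00 to 8.68 under TAE226 and 7.82 to 8.55 under PP2 (log2), and its part in the rise was not tested.

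In the other isoform pairs of complex IV the tissue-specific forms were not called. Of the muscle forms, Cox6a2 was bright enough to test and was not called, although the TAE226 arrays spread from 6.22 through 6.90 to 7.86 (0.72, adjusted p = 0.1). Its common partner Cox6a1 was not called either, with changes of −0.28 under DAPT (adjusted p = 0.0625), 0.11 under U0126, −0.08 under TAE226 and −0.04 under PP2. Cox7a2 and Cox6b1, the common forms of their subunits, were called higher under U0126, by 0.20 (adjusted p = 0.0174) and 0.22 (adjusted p = 0.0274), and in no other comparison with vehicle. The Cox7a2 call was lost without vehicle replicate 2 (0.0629) or U0126 replicate 2 (0.0946), and the Cox6b1 call without vehicle replicate 1 (0.0532), vehicle replicate 2 (0.0886) or U0126 replicate 2 (0.126). The testis form Cox8c and Ndufa4, a complex IV subunit first assigned to complex I, were called in none.

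Besides Cox7a1, Ndufa3 and Atp5md were higher in each comparison with vehicle, all of which use the same vehicle arrays. Ndufa3 measured 12.95, 12.84 and 12.76 under DAPT, 12.94, 12.96 and 12.89 under U0126, and 12.66, 12.74 and 12.81 under TAE226, each array above the vehicle arrays given earlier. Its changes were 0.31 under DAPT (adjusted p = 0.00035), 0.39 under U0126 (adjusted p = 2.59e-05) and 0.20 under TAE226 (adjusted p = 0.0119). The DAPT change was 0.18 with median centring and was then not called. Other probe sets of Ndufa3 gave −0.06 and 0.29 under DAPT, the first above the array median on 13 arrays. The TAE226 change turned to −0.06 with median centring and lost its call without TAE226 replicate 3 (adjusted p = 0.0654). Atp5md measured 12.66, 12.83 and 12.64 under DAPT, 12.88, 12.92 and 12.63 under TAE226, and 12.59, 12.57 and 13.07 under PP2, above its vehicle arrays, of which replicate 1 was the lowest. Its changes were 0.48 under TAE226 (adjusted p = 0.00672), 0.38 under DAPT (adjusted p = 0.0242) and 0.41 under PP2 (adjusted p = 0.0099). The DAPT call was lost without vehicle replicate 1 (0.128) or DAPT replicate 2 (0.0947), and the PP2 call without vehicle replicate 1 (0.065) or PP2 replicate 3 (0.068).

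The kinase inhibitors were also set directly against each other, which does not involve the vehicle arrays as a reference. U0126 against TAE226 gave 44 members higher and 2 lower, where 17.7% of all genes were higher and 19.5% lower (37.2% together), with a median of 0.18. Median centring raised this to 63 higher and 1 lower, and every one of the 44 stayed called. By complex, 20 of 33 complex I subunits, 7 of 9 complex III subunits, 4 of 14 complex IV members and 8 of 17 complex V members were higher. Cyc1 differed by 0.39 (SE 0.05, adjusted p = 2.23e-05) and Sdhb by 0.36 (SE 0.05, adjusted p = 6.03e-05), with no overlap of arrays. Ndufb1, a small accessory subunit, was lower under U0126, with 7.41, 7.05 and 7.61 against 8.23, 7.73 and 8.39 under TAE226 (−0.76, SE 0.19, adjusted p = 0.00542). Only 1 probe set named Ndufb1 alone, with a mean of 7.75 over all arrays, so no other reading was available. The other member lower was the assembly factor Ndufaf2 (−0.25, adjusted p = 0.0288), a call lost without U0126 replicate 1 (0.078), U0126 replicate 2 (0.0857) or TAE226 replicate 1 (0.134).

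U0126 against PP2 gave 25 members higher and 10 lower, where 27.8% of all genes were higher and 28% lower (55.9% together), with a median of 0.04. With median centring this became 34 higher and 0 lower. Of 33 complex I subunits 11 were higher and 7 lower, of its 8 assembly factors 4 and 1, and of 17 complex V members 3 and 2. Ndufb6, an accessory subunit, measured 12.73, 12.80 and 13.04 under U0126 and 12.25, 12.18 and 12.43 under PP2 (0.57, SE 0.10, adjusted p = 0.000149). Ndufa6 measured 12.37, 12.55 and 12.43 under U0126 and 12.77, 12.70 and 12.77 under PP2 (−0.30, SE 0.06, adjusted p = 0.000538; −0.16 with median centring), and Ndufv3 differed by −0.30 as well (adjusted p = 8.79e-05; −0.17 with median centring). Sdhb (0.28, adjusted p = 0.00027) and Cyc1 (0.24, adjusted p = 0.000916) were higher under U0126. Cycs was higher by 0.23 (adjusted p = 0.0161), a call lost without U0126 replicate 3 (0.064), PP2 replicate 1 (0.0651) or PP2 replicate 2 (0.0721).

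TAE226 against PP2 gave 4 members higher and 28 lower, where 23.2% of all genes were higher and 20.4% lower (43.6% together), with a median of −0.10. With median centring the count was 0 higher and 14 lower, and all 28 falls kept their sign. Complex I held 13 of the 28, and complexes III and V held 5 and 6. Ndufv3 measured 11.84, 11.92 and 11.99 under TAE226 and 12.55, 12.55 and 12.61 under PP2 (−0.65, SE 0.05, adjusted p = 2.04e-08), and Ndufa6 differed by −0.58 (SE 0.06, adjusted p = 7.76e-07). Over the 5 groups together, limma's F-test called 69 of the 86 members (80.2%), against 73.2% of all tested genes, so a difference somewhere among the treatments was about as common among respiratory genes as elsewhere on the array.

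Genes that feed or build the respiratory chain did not share 1 direction, and their counts stand beside shares over all tested genes of 19.5% higher and 21.4% lower under U0126, 26.1% and 26.7% under PP2, 15.2% and 15.9% under TAE226, and 17.1% and 17.5% under DAPT. Of 13 TCA cycle genes, U0126 raised 5 and lowered 3, PP2 raised 3 and lowered 6, TAE226 raised 1 and lowered 7, and DAPT raised 1 and lowered 2. Ogdh, the E1 subunit of the 2-oxoglutarate dehydrogenase complex, rose by 0.83 under U0126 (adjusted p = 4.23e-07), 0.55 under PP2, 0.45 under DAPT and 0.37 under TAE226. Cs, citrate synthase, rose by 0.35 under U0126 (adjusted p = 0.000162). Idh2, the NADP-linked isocitrate dehydrogenase, rose by 0.34 under U0126 (adjusted p = 0.000111) and fell by 0.44 under TAE226 (adjusted p = 1.45e-05). Idh3a, a subunit of the NAD-linked enzyme, rose by 0.26 under U0126 (adjusted p = 0.000344) and fell by 0.42 under PP2 (adjusted p = 1.58e-06).

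Entry of pyruvate was measured by 13 genes, of which U0126 raised 4 and lowered 1, PP2 raised 4 and lowered 3, TAE226 lowered 3 and raised 0, and DAPT raised 1 and lowered 0. Mpc1, a subunit of the mitochondrial pyruvate carrier, rose by 0.46 under U0126 (adjusted p = 4.28e-05). Pdk1, a kinase that shuts pyruvate dehydrogenase and is induced by hypoxia, fell by 1.03 under TAE226 (adjusted p = 5.68e-06) and 0.99 under PP2 (adjusted p = 2.79e-06). Pdk4, a relative induced by fasting, had the largest rise of these genes under U0126, 0.69. That call was lost without vehicle replicate 3 (0.0601) or U0126 replicate 2 (0.0813). Under PP2 Pdk4 changed by −1.64 (adjusted p = 4.81e-06), and it lay below the array median on all 3 PP2 arrays. The 4 hypoxia-linked mitochondrial genes, Pdk1, Bnip3, Higd1a and Lonp1, all fell under TAE226 and under PP2, 3 fell under DAPT and 1 under U0126. Bnip3, a receptor for the removal of mitochondria, fell by 1.88 under TAE226 (adjusted p = 2.13e-12), 1.21 under PP2 (adjusted p = 2.11e-11), 0.56 under DAPT (adjusted p = 7.99e-07) and 0.25 under U0126 (adjusted p = 0.00191).

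Assembly factors with other symbols moved both ways, in counts to be read against the shares given with the TCA cycle. Of 35, U0126 raised 10 and lowered 5, PP2 raised 7 and lowered 8, DAPT raised 4 and lowered 5, and TAE226 raised 2 and lowered 5. Cox18, which inserts a core complex IV subunit into the membrane, fell by 0.80 under PP2 (adjusted p = 1.23e-08), 0.62 under DAPT (adjusted p = 6.79e-07), 0.60 under TAE226 (adjusted p = 1.58e-06) and 0.35 under U0126. Pet100, another complex IV assembly factor, rose by 0.63 under U0126 (adjusted p = 9.98e-07) and 0.54 under PP2 (adjusted p = 3.73e-06). Sco2, a copper chaperone for complex IV, fell by 0.64 under U0126 (adjusted p = 0.000566). Uqcc3, needed for complex III assembly, rose by 0.64 under PP2 (adjusted p = 2.1e-07).

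Of 17 regulators of respiratory genes tested, PP2 lowered 10 and raised 2, where it lowered 26.7% and raised 26.1% of all tested genes. DAPT lowered 5 and raised 4 (17.5% and 17.1% of all genes), U0126 lowered 5 and raised 3 (21.4% and 19.5%), and TAE226 lowered 3 and raised 2 (15.9% and 15.2%). Ppargc1b, the coactivator PGC-1β, rose by 0.92 under U0126 (adjusted p = 4.72e-06), 0.68 under DAPT (adjusted p = 0.000152) and 0.59 under PP2. Ppargc1a, its relative PGC-1α, changed by −1.32 under PP2 (adjusted p = 5.78e-05), where it was below the array median on all 3 arrays, and by 0.45 under U0126 (adjusted p = 0.106). Gabpa, the ETS factor that binds respiratory promoters, fell by 0.45 under U0126 (adjusted p = 2.82e-05), and Tfam, which packages and transcribes mitochondrial DNA, by 0.29 (adjusted p = 0.00221). Pprc1 (−0.94, adjusted p = 4.56e-08), Tfb1m (−0.77, adjusted p = 1.97e-06) and Myc (−1.25, adjusted p = 3.3e-11) fell under PP2. Nrf1 was called in no comparison with vehicle.

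**Figure D4:**
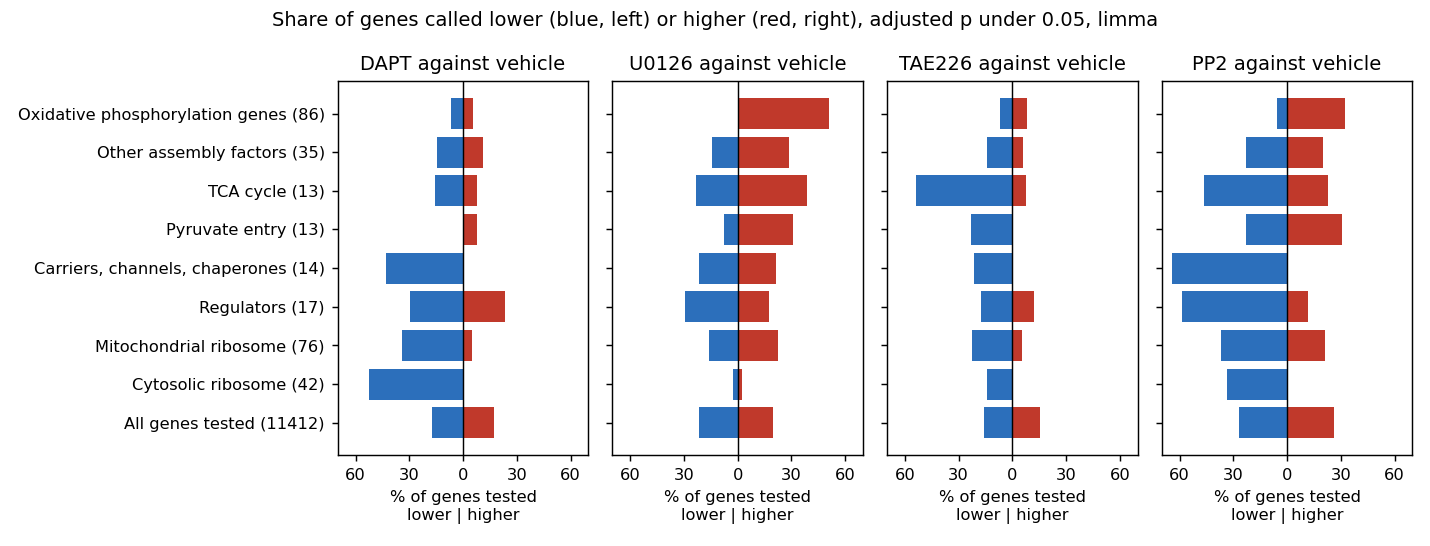
Share of tested genes called lower (blue, left) or higher (red, right) against vehicle at an adjusted p under 0.05 (limma), in percent, for 8 gene lists and for all tested genes, with the number tested beside each name, in 1 panel per inhibitor. Under U0126 the respiratory genes reach 51.2% higher with none lower, while the other lists shown have members on both sides.

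Carriers, import proteins and chaperones of mitochondria fell under PP2 in 9 of 14 cases, with 0 higher, where 26.7% of all tested genes were lower and 26.1% higher. Under DAPT 6 fell, under TAE226 3 fell, and under U0126 3 rose and 3 fell, where 17.5%, 15.9% and 21.4% of all tested genes were lower under DAPT, TAE226 and U0126. Hspa9, the matrix Hsp70, fell by 1.41 under PP2 (adjusted p = 7.17e-09), and by 0.65 under both DAPT (adjusted p = 0.000145) and TAE226 (adjusted p = 0.000158). Hspd1, the chaperonin Hsp60, fell by 0.66 under PP2 (adjusted p = 1.47e-06). Among 76 mitochondrial ribosomal protein genes, U0126 raised 17 and lowered 12, PP2 raised 16 and lowered 28, DAPT raised 4 and lowered 26, and TAE226 raised 4 and lowered 17. Of 42 cytosolic ribosomal protein genes, 1 rose and 1 fell under U0126, where their median change was 0.04 against 0.15 for the respiratory genes. Under DAPT 22 of the 42 fell, under PP2 14 and under TAE226 6, with 0 higher in each, against the same shares of all tested genes. Whether the lists differ from the respiratory genes was not tested.

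**Figure D5:**
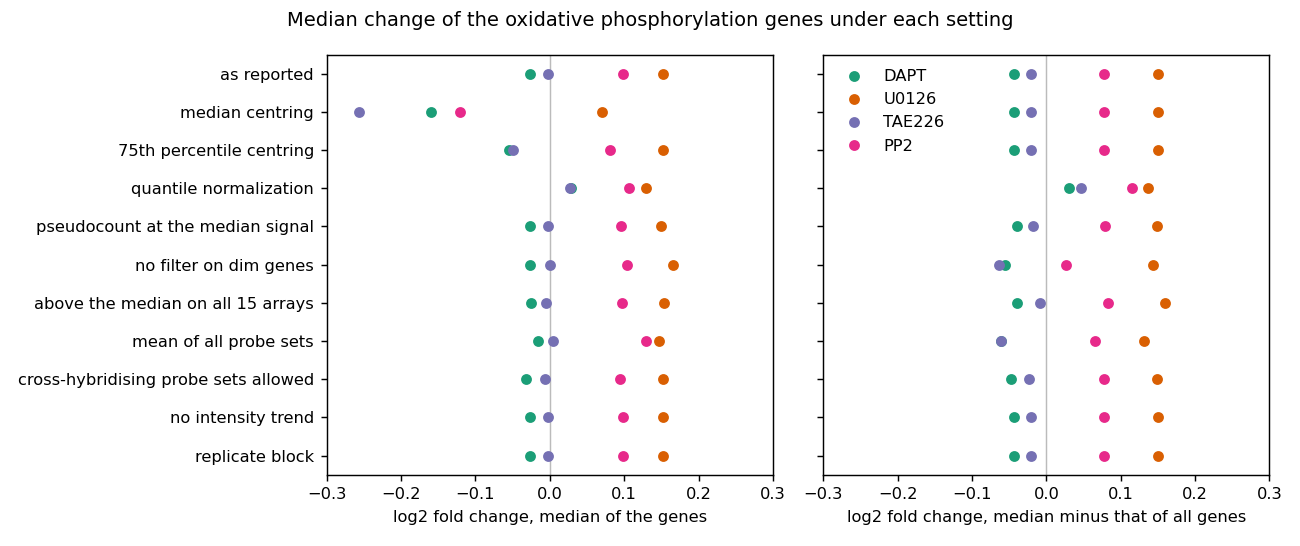
Median log2 fold change of the respiratory genes against vehicle under each processing setting (rows), as it is (left panel) and minus the median of all tested genes (right panel); each dot is an inhibitor. Under U0126 the left-hand median lies between 0.07 and 0.17 in all settings shown, while the PP2 median turns to −0.12 with median centring.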

How the data were processed

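Total RNA (250 ng per sample) was hybridised to Affymetrix Mouse430_2 arrays, 15 in all. The deposited values are linear signal intensities which, per the submitters' processing notes, the authors made with Affymetrix Expression Console and MAS5. Their versions and parameters are not stated in those notes. The trimmed mean intensity (2% at each end) was 500 on every array. Of 45101 probe sets, 64 were controls, and 34945 had 1 gene in the platform annotation, 932 several and 9160 none listed. Symbols were updated through Entrez IDs for 34741. Each gene was represented by its probe set of highest mean log2 intensity (names ending in _x_at only where no other existed) and tested where 3 or more of the 15 arrays had it above their median. Log2 intensities of all 15 arrays were fitted in limma 3.58.1 (R 4.3.3) with 1 coefficient per group and an intensity trend, with 10 residual degrees of freedom. Two-sided p-values were adjusted by Benjamini and Hochberg over 11412 genes in each comparison, with 0.05 as the threshold. Adjusted p-values in the text come from this limma fit, or, where an array is named as left out, from the same model refitted without it. The fitting steps were tested on simulated data. Log2 fold changes had a standard error of 0.0976 at the median, and the number of arrays limits the precision. No array was a copy of another: the median absolute log2 difference was 0.0956 to 0.149 within groups and 0.169 to 0.351 between them.

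The members and gene lists were chosen with earlier results of these data known. Named members were, per complex and comparison with vehicle, up to 2 rises and 2 falls with non-overlapping arrays, members called alike in all 4 comparisons, complex II, cytochrome c, complex IV isoforms, the brightest member of each complex, and up to 4 members of each list per comparison. Ndufa6, Ndufb1, Ndufb6, Ndufs1, Ndufs3, Ndufv1, Ndufv3, Ndufaf3, Nrf1 and genes named for an opposing probe set were chosen after their values were seen. Alternatives were 3 other scalings, a pseudocount, other filters, the mean of all probe sets, no trend, a replicate block and leaving out each array.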

Additional observations from a re-analysis of the deposited data

How the results depend on the processing

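The scaling between arrays moved the counts most. With median centring, members higher and lower were 1 and 10 under DAPT, 9 and 0 under U0126, 0 and 39 under TAE226, and 4 and 18 under PP2. The direct contrasts then gave 1 lower for U0126 against TAE226, 0 lower for U0126 against PP2, and 0 higher and 14 lower for TAE226 against PP2. The member medians were −0.16 under DAPT, 0.07 under U0126, −0.257 under TAE226 and −0.121 under PP2. With 75th percentile centring TAE226 had 2 higher and 12 lower (median −0.049), and U0126 against TAE226 had 1 lower. Quantile normalization gave 14 higher under DAPT (median 0.028) and 12 higher under TAE226. Averaging all probe sets of a gene gave 3 lower under U0126, 4 lower for U0126 against TAE226 and 2 higher for TAE226 against PP2. Without the filter on dim genes TAE226 had 4 higher, and with genes above the median on all 15 arrays U0126 had 1 lower.

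The labels do not say whether equal replicate numbers pair the samples. Correlations of same-numbered deviations from the group means ran from −0.24 to 0.20, with 6 of 30 over 0.1. With 3 arrays per group they cannot settle whether samples were paired. With the replicate number as a block, members higher and lower were 5 and 6 under DAPT, 42 and 0 under U0126, 4 and 6 under TAE226, and 24 and 5 under PP2. Leaving out 1 array at a time gave 3 to 6 higher and 3 to 7 lower under DAPT, 36 to 47 and 0 to 1 under U0126, 3 to 9 and 4 to 7 under TAE226, and 21 to 30 and 4 to 7 under PP2. The same gave 33 to 45 higher and 1 to 2 lower for U0126 against TAE226, 21 to 29 and 6 to 11 for U0126 against PP2, 3 to 5 and 20 to 29 for TAE226 against PP2, and 60 to 69 members by the F-test. Moves of over 1.5 times came without DAPT replicate 1 (3 higher and 3 lower under DAPT) or 3 (3 lower), without TAE226 replicate 3 (3 higher under TAE226), without vehicle, DAPT or PP2 replicate 1 or 2 or TAE226 replicate 2 (4 higher under TAE226), without U0126 replicate 1 or 2 (1 lower for U0126 against TAE226), and without PP2 replicate 3 (6 lower for U0126 against PP2). Under U0126 1 member became lower without vehicle replicate 2, DAPT replicate 1 or 3, U0126 replicate 1 or 2, or TAE226 replicate 1.

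Of 172 calls on named genes, 115 stayed called in the same direction with median centring, 49 lost the threshold and 8 changed sign: Atp5l −0.11, Ndufa3 −0.06, Pet100 −0.01 and Uqcc3 −0.07 under TAE226, and Idh2 −0.06, Ldha −0.05, Mpc1 −0.03 and Sdhd −0.09 under PP2. With the mean of all probe sets 127 stayed, 35 lost the threshold and 10 changed sign: Hif1a at 0.62 under DAPT, 0.36 under U0126, 0.21 under TAE226 and 0.32 under PP2, Dld at 0.00 under U0126 and 0.09 under PP2, Atpaf1 at 0.03 under PP2, Cox20 at 0.02 under U0126, Higd1a at 0.00 under DAPT and Idh3a at 0.17 under TAE226. The cause of these changes was not tested. Many changes were near the median standard error, so a member not called may have changed by an amount this number of arrays cannot show.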
